A study of Danio rerio with 15 samples.

Results

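The comparison described here is between mpeg-GFP+ cells of csf1r double mutant zebrafish (csf1rDM) and of control zebrafish at 33 days post fertilization (dpf). It comprised 3 csf1rDM and 3 control libraries, chosen by the genotype and stage in the sample labels, out of 15 libraries in all. Control fish were wildtype tg(mpeg-GFP), and mutant fish were csf1raj4e1/j4e1;csf1rbre01/re01 tg(mpeg-GFP), so that both groups carried the reporter and the mutants were homozygous for an allele of each csf1r gene. Each library held the GFP-positive cells of a single whole juvenile, which had been cut up, dissociated with trypsin on ice and sorted by flow cytometry into Trizol. The remaining 9 libraries, of control, csf1rDM and il34 mutant fish at 1.5 months post fertilization (mpf), entered the statistical fit for its estimate of the spread, and the first 6 of them gave the values at the older age below. Nothing in the labels says which fish were siblings.

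Csf1r is the receptor tyrosine kinase for the cytokines Csf1 and Il34, and in vertebrates most tissue macrophages, the microglia of the brain among them, depend on it to survive and divide. Zebrafish have a pair of csf1r genes, csf1ra and csf1rb. The gene mpeg1, whose regulatory sequences drive the reporter, encodes a pore-forming protein of phagocytes, but it is also active in metaphocytes. These are cells of the skin, gill and gut that resemble macrophages in shape, carry epithelial adhesion genes and express few phagocytosis genes. An origin from ectoderm has been described for those of the skin. The sort could therefore hold macrophages, metaphocytes and other mpeg1-expressing leukocytes in different proportions, and in a bulk library fewer cells of a type cannot be told apart from less RNA per cell.

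Library totals were 5488201 to 11638551 counts in the controls and 10110020 to 106374902 counts in the csf1rDM fish, the largest being that of csf1rDM replicate 2. Genes were tested with edgeR on 17640 of 35117 gene identifiers, and levels are given as CPM, counts per 1000000 of the scaled library. Spearman correlations of gene levels were 0.826 to 0.840 among the controls, 0.744 to 0.770 among the csf1rDM fish and 0.701 to 0.733 between a control and a csf1rDM fish. The pan-leukocyte phosphatase gene ptprc was at 757, 710 and 811 CPM in control replicates 1 to 3 and at 612, 736 and 607 CPM in csf1rDM replicates 1 to 3. LCP1, an actin-bundling protein of leukocytes, was at 1422 to 1483 CPM in controls and at 1473 to 1879 CPM in mutants. Neither was called (adjusted p = 0.374 and 0.321), and the groups overlapped for both. Of the identifiers that the symbol table gives as MPEG1, ENSDARG00000055290 was at 3235, 3890 and 2357 CPM in controls and at 8571, 6015 and 7471 CPM in csf1rDM fish, so that every mutant lay above every control. This difference was called (log2 fold change 1.22 ± 0.24 (SE), adjusted p = 0.0145), and the call was lost without control replicate 1 (adjusted p = 0.0650), control replicate 3 (0.0927) or csf1rDM replicate 1 (0.0511). ENSDARG00000043093, the other expressed MPEG1 identifier, was at 59.3 to 96.9 CPM in controls and 26.0 to 58.9 CPM in mutants and was not called (adjusted p = 0.761).

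At an adjusted p under 0.05, 538 genes differed between csf1rDM and control fish at 33 dpf, 3.05% of those tested. In csf1rDM fish 302 genes were higher (1.71% of those tested) and 236 were lower (1.34%). The counts of called list members below are to be set against these shares. With library size alone as the scaling, which shifted the median log2 fold change of all genes from 0 to -0.18, 209 were higher and 344 lower, and without the deep csf1rDM replicate 2 the numbers were 210 and 266. The groups did not overlap for 4154 genes, 23.5% of those tested, called or not. The median log2 fold change was 1.76 over the higher genes and -2.54 over the lower genes. Higher genes included members of the lists of antigen presentation, epithelial adhesion, actin regulation and the TNF pathway. Lower genes included members of the lists of macrophage markers, complement, DNA replication, ribosome assembly and one-carbon metabolism. The lists of actin regulation, the TNF pathway, ribosome assembly and one-carbon metabolism were drawn up after the values were seen. The number of calls depended on which libraries entered the fit: it was 148 when only the 6 libraries at 33 dpf were fitted, and it was 251 without control replicate 1, 242 without control replicate 3 and 336 without csf1rDM replicate 1.

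**Figure D1:**
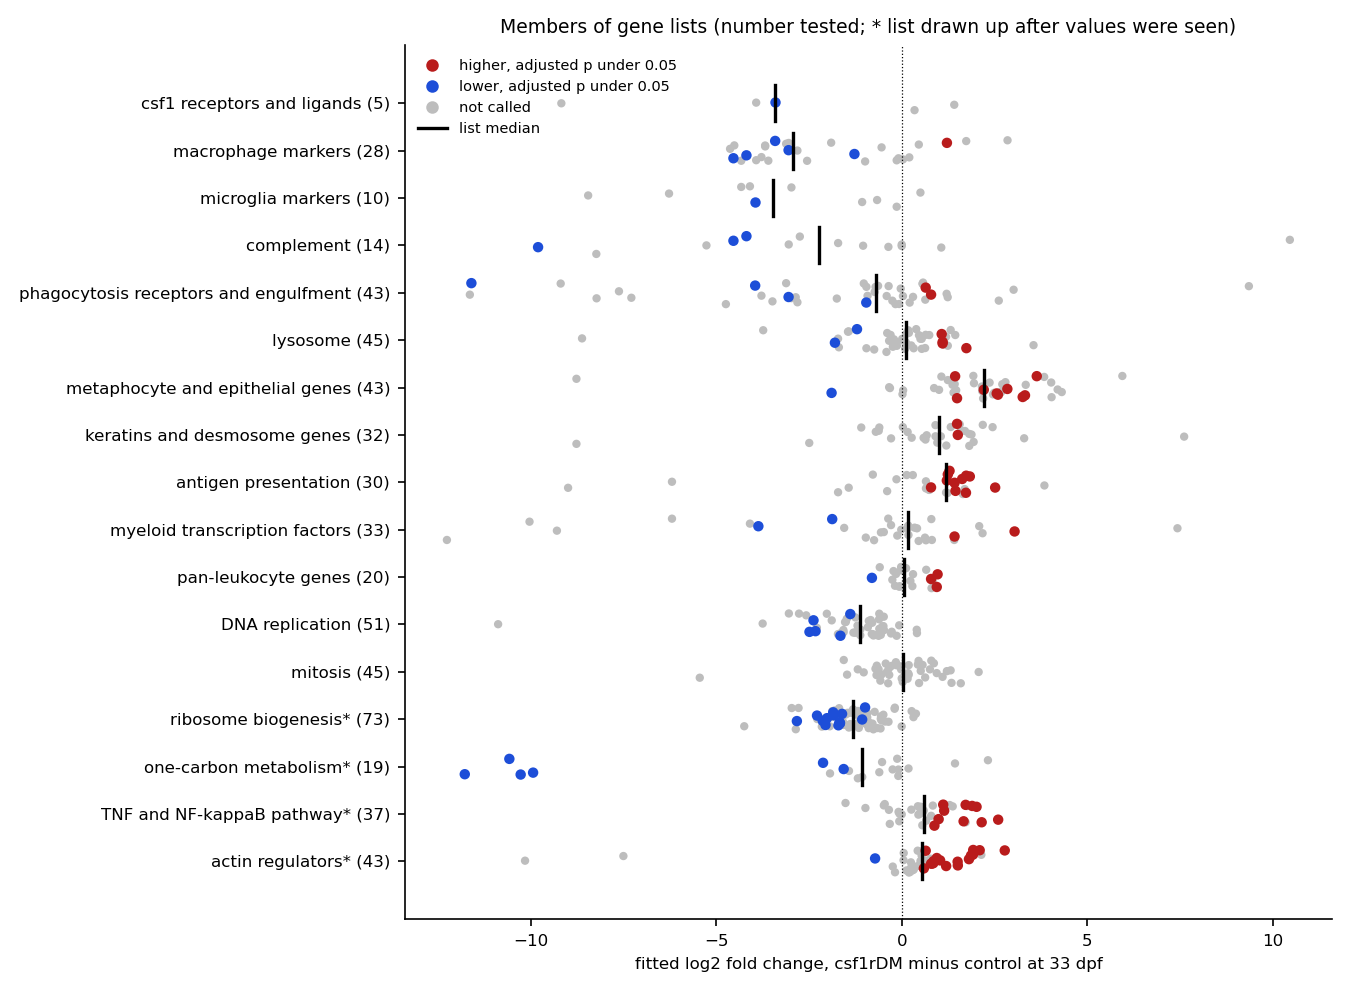
Fitted log2 fold change (csf1rDM minus control at 33 dpf, horizontal axis) of every tested member of 17 gene lists, with the number tested after each name; red points were called higher, blue points called lower, grey points not called, and black bars are list medians. Members of the metaphocyte and epithelial list lay mostly to the right (median 2.21), those of the macrophage, DNA replication and ribosome biogenesis lists mostly to the left (medians -2.93, -1.12 and -1.31), and mitosis genes centred on 0.03. Asterisks mark lists drawn up after the values were seen, ribosome biogenesis among them.

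The receptors that the mutations affect came first. csf1ra was at 163, 183 and 177 CPM in the control fish and at 0, 33.9 and 0.0770 CPM in the csf1rDM fish. The mutants were thus below all controls but unlike each other, with csf1rDM replicate 2 far above the other mutants, and csf1ra was not called (log2 fold change -3.92 ± 1.47 (SE), adjusted p = 0.198). Without csf1rDM replicate 2 its adjusted p was 5.02e-05. csf1rb was at 228, 113 and 252 CPM in controls and at 44.9, 5.75 and 5.47 CPM in mutants, and here csf1rDM replicate 1 was the highest mutant. It was lower in csf1rDM fish (log2 fold change -3.41 ± 0.77 (SE), adjusted p = 0.0310), and the call was lost without either of control replicates 1 and 3 (adjusted p = 0.0786 and 0.0932) or csf1rDM replicates 2 and 3 (0.0735 and 0.0860). No source states whether either allele lowers the transcript, so these levels are no check of the genotype labels. The ligand genes il34, csf1a and csf1b were at 0 to 24.4 CPM in the 6 fish and none was called.

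Several genes that mark macrophages were lower in the mutants. The macrophage list had 28 tested members, of which 5 fell, 1 rose and 22 did not pass the test. The member that rose was MPEG1, and those that fell were csf1rb and the 4 genes below. The number that fell was 3 without control replicate 3 or csf1rDM replicate 3, 9 without csf1rDM replicate 2 and 1 with only the 6 libraries at 33 dpf. The list median log2 fold change was -2.93, against 0 over all genes tested, and 18 of the 28 members had all 3 csf1rDM fish below all 3 controls, where 12.4% of all genes tested did. The summed level of the 29 measured members did not fall: it was 8377 to 10108 CPM in controls and 8264 to 10763 CPM in mutants. MPEG1 ENSDARG00000055290 alone made up 2357 to 3890 CPM of it in controls and 6015 to 8571 CPM in mutants. The complement C1q genes, which opsonize particles for uptake and are made largely by macrophages, were among those that fell. c1qc was at 446, 642 and 899 CPM in controls and at 7.87, 76.2 and 24.6 CPM in mutants (log2 fold change -4.18 ± 0.75 (SE), adjusted p = 0.00880). c1qa was at 154, 285 and 283 CPM against 4.54, 23.3 and 2.77 CPM (log2 fold change -4.53 ± 0.67 (SE), adjusted p = 0.00309). For both genes the groups were far apart and csf1rDM replicate 2 was the highest mutant. CMKLR1, the chemerin receptor gene, was at 389, 437 and 481 CPM in controls and 38.2, 79.3 and 40.2 CPM in mutants, an 8.27-fold difference (adjusted p = 0.00164). ms4a17a.10, a membrane-spanning 4-domain gene of zebrafish macrophages, fell by 1.27 on the log2 scale (adjusted p = 0.0193). The call for ms4a17a.10 was lost without control replicate 2 (adjusted p = 0.0651), control replicate 3 (0.0741), csf1rDM replicate 1 (0.0729) or csf1rDM replicate 3 (0.0829).

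Several other defining macrophage markers had lower values in every mutant fish but did not pass the test. The scavenger receptor gene marco was at 205, 388 and 318 CPM in controls and at 0, 74.5 and 30.04 CPM in mutants (adjusted p = 0.168). Among the 6 identifiers named MFAP4, the 1 with the highest level in controls, ENSDARG00000090783, was at 211, 224 and 201 CPM in controls and at 0, 20.6 and 4.62 CPM in mutants (adjusted p = 0.0922). Which identifier is the zebrafish gene mfap4 could not be settled from the symbol table. None of the other 5 was called, though ENSDARG00000088745 came close (adjusted p = 0.0522). It was called under other scalings (adjusted p = 0.0394 to 0.0490) and after thinning (0.0242). Among the leave-outs it was called only without csf1rDM replicate 2 (0.0116). ENSDARG00000088745 and ENSDARG00000090557 were also lower in every mutant, whereas the groups overlapped for the remaining 3, of which ENSDARG00000038681 and ENSDARG00000038683 had positive log2 fold changes (2.85 and 1.74) at levels of at most 3.82 CPM in controls. The mannose receptor gene MRC1 was at 50.5, 110 and 77.6 CPM against 34.1, 0.0301 and 0.0770 CPM (adjusted p = 0.502). These genes shared a wide spread among the csf1rDM fish, and for marco and ENSDARG00000090783 csf1rDM replicate 1 had no count at all. Without csf1rDM replicate 1, marco and MRC1 were called (adjusted p = 0.0135 and 0.0268).

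Phagocytosis receptors differed in size of change. stab1, the gene of the scavenger receptor stabilin, was at 235, 174 and 219 CPM in control fish and at 0, 0.0703 and 0.0770 CPM in csf1rDM fish, the latter resting on 8 counts in all. All 3 mutants were near the limit of detection, and stab1 had an adjusted p of 1.05e-05, among the smallest of all genes. havcr1, which encodes a receptor for phosphatidylserine on dying cells, was at 166, 205 and 207 CPM in controls and 30.4, 5.97 and 1.46 CPM in mutants (log2 fold change -3.95 ± 0.84 (SE), adjusted p = 0.0224). fcer1gl, an Fc receptor signalling subunit gene, fell by 0.95 on the log2 scale (adjusted p = 0.0340). The call for havcr1 was lost without control replicate 3 or csf1rDM replicate 2 (adjusted p = 0.0592 and 0.0698). The call for fcer1gl was lost without any single fish except csf1rDM replicate 2 (0.0501 to 0.138). mertka, a receptor tyrosine kinase gene for apoptotic cell uptake, was at 15.9, 40.5 and 95.5 CPM in controls and 4.74, 14.5 and 0 CPM in mutants. Its controls differed among themselves and it was not called (adjusted p = 0.262). In the list of 43 tested phagocytosis and engulfment genes, 4 fell, 2 rose and 37 were not called, and the median log2 fold change was -0.70. Over all genes tested 1.34% fell and 1.71% rose. The summed level of the 47 measured members overlapped, at 8659 to 9711 CPM in controls and 8779 to 9423 CPM in mutants. Without control replicate 3, 2 fell and 1 rose, as with only the 6 libraries at 33 dpf. The members that rose were rac2 (log2 fold change 0.79 ± 0.14 (SE)) and ARPC1B (0.65 ± 0.11), a GTPase and a subunit of the actin-nucleating Arp2/3 complex that serve cell movement as well as uptake. Of 14 tested complement genes 3 fell and none rose. The third of these, the terminal complement gene c7b, was at 18.7, 15.9 and 48.1 CPM in controls and had 2 counts in the 3 mutants together (adjusted p = 0.0301, lost without any single fish but control replicate 2 at 0.0597 to 0.109). Of 10 tested microglia markers only havcr1 was called, and the list median was -3.46.

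**Figure D2:**
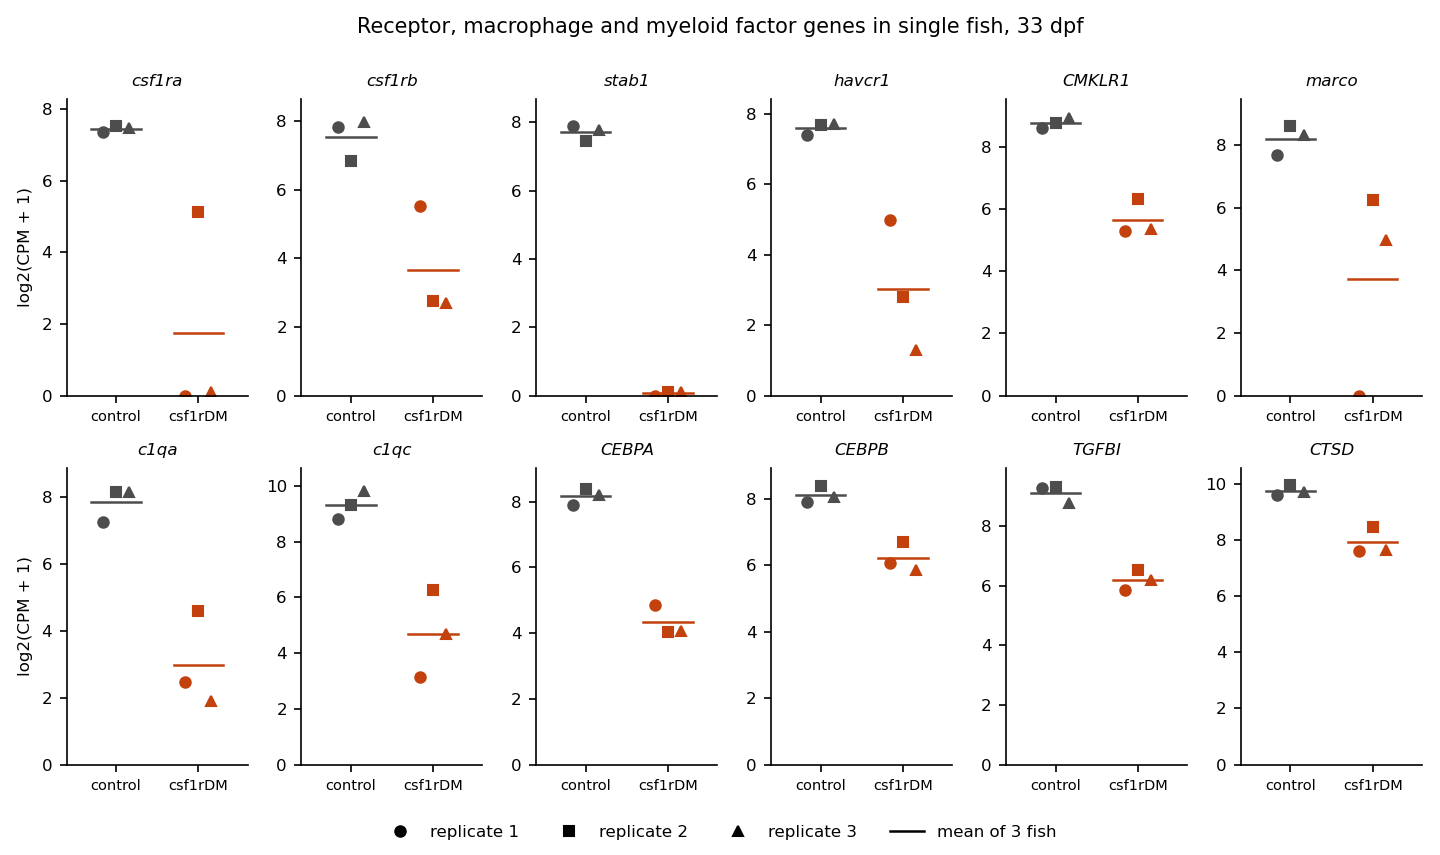
Level of 12 genes in each fish at 33 dpf, as log2(CPM + 1) on the vertical axis, for controls (grey) and csf1rDM fish (orange); symbols give the replicate and bars the mean of the 3 log2 values. All 3 mutants lay below all 3 controls for each gene, with stab1 at or near 0 in every mutant and csf1ra, marco and c1qc spread widely among the mutants. The 12 genes are a selection, and MPEG1 ENSDARG00000055290, of the macrophage list, was higher in every mutant.

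Transcription factor genes of the myeloid lineage did not move together. CEBPA, which in mammals directs granulocyte and monocyte differentiation, was at 235, 333 and 295 CPM in controls and 28.2, 15.5 and 15.8 CPM in mutants, 14.5-fold lower (log2 fold change -3.86 ± 0.26 (SE), adjusted p = 1.05e-05). All 3 mutants lay far below all 3 controls. CEBPB, a related factor of activated macrophages, was at 237, 333 and 262 CPM against 66.8, 103 and 57.3 CPM, 3.66-fold lower (adjusted p = 0.00265). SPIC, an Ets-family factor known in mice from iron-recycling macrophages, was higher in csf1rDM fish, at 71.0, 30.8 and 49.1 CPM in controls and 224, 627 and 392 CPM in mutants (log2 fold change 3.04 ± 0.46 (SE), adjusted p = 0.00339). ID2, an inhibitor of helix-loop-helix factors required for dendritic cell and Langerhans cell development in mice, rose by 1.42 ± 0.26 (SE) on the log2 scale (adjusted p = 0.0105), a call lost without control replicate 1 or 3 (adjusted p = 0.0640 and 0.0675). The myeloid factors spi1a and IRF8 were not called. spi1a was at 1364 to 1598 CPM in controls and 1621 to 1840 CPM in mutants (adjusted p = 0.474, and its small difference had the other sign with library size alone as the scaling), and IRF8 was at 205 to 344 CPM against 302 to 566 CPM (adjusted p = 0.247). Of 33 tested factors 2 rose, 2 fell and 29 were not called.

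Among the 15 lower genes with the smallest adjusted p, stab1, CEBPA and CMKLR1 have been described, and 1 identifier had no symbol. TGFBI, a secreted matrix protein gene that macrophages express, was at 613, 630 and 434 CPM in controls and 56.6, 91.6 and 71.8 CPM in mutants (log2 fold change -2.93 ± 0.26 (SE), adjusted p = 0.000132). nrp1b, a co-receptor gene for semaphorins and vascular growth factors, was at 23.7, 42.0 and 20.3 CPM in controls and had 2 counts in all mutants together. zgc:64065 was at 35.9, 74.4 and 70.6 CPM in controls and had a single count in the mutants. Other genes had no count in any csf1rDM fish. tpte, a membrane phosphatase gene, was at 54.8, 46.6 and 31.2 CPM in controls and at least 235-fold lower in mutants, taking 3 counts per library as the floor. jac2 was at 35.5, 82.4 and 214 CPM in controls and at least 589-fold lower. For mat2al, a methionine adenosyltransferase gene, and si:ch211-8c17.4 the bounds were 130.0-fold and 202-fold. These bounds rest on sequencing depth alone and do not allow for the number of cells in a library. sec14l8, of a family of lipid-transfer proteins, was at 7.78, 44.5 and 66.7 CPM in controls and had 2 counts in the mutants. KTN1, NAP1L1 and PA2G4, genes of an endoplasmic reticulum membrane protein, a histone chaperone and a growth-associated regulator of ribosome assembly, fell by 1.81, 1.45 and 1.67 on the log2 scale. These last genes were well expressed in every fish (84.9 CPM or more). The 15 lower genes were chosen among called genes without overlap between the groups, so their separation was set by that choice.

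The csf1rDM fish were not alike in the genes that fell. Over the 236 lower genes, and leaving out ties, csf1rDM replicate 2 had the highest level of the 3 mutants for 112 and the lowest for 31, whereas csf1rDM replicates 1 and 3 had the lowest for 62 and 74. In 33 of the lower genes no mutant had a count. csf1rDM replicate 2 was also the deepest library, with a total of 106374902 counts against 10110020 and 13029138 in the other mutants, and the part of depth in these ranks was not tested. The median level of these genes, as a percentage of the control mean, was 12.8% in csf1rDM replicate 1, 17.7% in replicate 2 and 12.5% in replicate 3. The order was nearly even over the 302 higher genes, where replicates 1, 2 and 3 were highest for 108, 98 and 96 genes. Connective tissue genes moved with the same fish: the collagen gene col1a1a was at 364 to 550 CPM in controls and at 50.7, 604 and 74.6 CPM in csf1rDM replicates 1, 2 and 3. Whether this had a part in the intermediate macrophage gene levels of csf1rDM replicate 2 was not tested. Without that fish col1a1a and COL1A2 were called lower (adjusted p = 0.00247 and 0.0148), 9 macrophage list members fell in place of 5, and 4 complement genes in place of 3.

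Genes of epithelial adhesion were higher in csf1rDM fish. cdh1, the E-cadherin gene, was at 26.4, 49.0 and 33.3 CPM in controls and 350, 507 and 495 CPM in mutants, 12.5-fold higher (log2 fold change 3.64 ± 0.44 (SE), adjusted p = 0.000977). epcam, the epithelial cell adhesion molecule gene, was at 67.5, 86.2 and 78.3 CPM against 288, 626 and 485 CPM (log2 fold change 2.59 ± 0.52 (SE), adjusted p = 0.0170). For both genes every mutant lay far above every control. The call for epcam was lost without control replicate 1 (adjusted p = 0.0871), control replicate 3 (0.0887) or csf1rDM replicate 2 (0.0511). The tight junction genes cldn7b and cldnb rose by 3.26 ± 0.64 and 2.56 ± 0.51 (SE) on the log2 scale, and spint2 and spint1a, inhibitors of epithelial serine proteases, by 3.32 ± 0.63 and 1.44 ± 0.23. spint2 was at 35.2, 17.4 and 43.5 CPM in controls and 279, 320 and 364 CPM in mutants, with a wide gap between the groups. Leaving out control replicate 1 ended the calls for spint2, cldn7b and cldnb (adjusted p = 0.0564, 0.0663 and 0.0538). Leaving out control replicate 2 ended those for cldn7b and cldnb (0.0556 and 0.0558), and leaving out control replicate 3 that for cldnb (0.0992).

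In the list of metaphocyte and epithelial genes, 43 members were tested, 9 rose (these 6, JUP and pkp3a among them), 1 fell and 33 were not called. Over all genes tested 1.71% rose and 1.34% fell. The list median was 2.21, and 39 members had a positive log2 fold change. Leaving out control replicate 1 or 3 ended the call for JUP, a plakoglobin gene of junctions (adjusted p = 0.0684 and 0.0732), and leaving out any single fish ended that for the desmosome gene pkp3a (0.0744 to 0.184). The study named cdh1, epcam and cd4-1 as metaphocyte genes in cells sorted from adult skin, which are not among these libraries. Among whole-juvenile mpeg1+ cells it described metaphocyte-like profiles in csf1rDM cells only. It reported the skin metaphocytes as negative for ptprc, which here was at 607 to 736 CPM in mutants and 710 to 811 CPM in controls. The number of list members that rose ranged from 2 (without control replicate 1) to 10 over the other edgeR settings, and was 5 without control replicate 3. The member that fell was cd4-1, the CD4 co-receptor gene, at 61.1, 44.7 and 46.3 CPM in controls and 13.3, 17.02 and 10.6 CPM in mutants (log2 fold change -1.89 ± 0.32 (SE), adjusted p = 0.00650). The summed level of the whole list was 1031 to 1233 CPM in controls and 3885 to 5858 CPM in csf1rDM fish, and 34 to 36 of its 46 members had 3 counts or more in a control and 35 to 40 in a mutant.

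Of the keratinocyte markers few were called, while their summed level was higher in every mutant. Summed over the 33 keratin and desmosome genes, levels were 4342 to 4794 CPM in controls and 6987 to 7654 CPM in csf1rDM fish. Of the 32 tested, krt91 (log2 fold change 1.51 ± 0.33 (SE)) and JUP (1.49 ± 0.28) were called higher and none lower. Both calls were lost with only the 6 libraries at 33 dpf and without control replicate 1 or 3, while DESeq2 called 5 higher, and the call for krt91 was lost without control replicate 1 (adjusted p = 0.0640), 2 (0.0585) or 3 (0.138) or csf1rDM replicate 1 (0.101). The defining markers krt4, krt5, cyt1 and TP63 were not called (adjusted p = 0.183, 0.0689, 0.775 and 0.730). krt4 was at 304 to 593 CPM in controls and 791 to 800 CPM in mutants, and krt5 at 26.8 to 44.3 CPM against 91.3 to 142 CPM. TP63, the basal keratinocyte factor gene, was at 0.770, 23.3 and 7.85 CPM in controls and 70.0, 13.8 and 58.6 CPM in mutants, so that the groups overlapped. Sorted keratinocytes would carry several of the epithelial genes above, and their part in the result was not tested.

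Antigen presentation genes rose in larger number. Of 30 tested, 11 rose and none fell, against 1.71% of all genes tested that rose. Among the 11 were both XCR1 identifiers and ID2, which relate to dendritic cells in mammals. The lists of receptors and of myeloid factors count these genes too. cd74a, the invariant chain gene that guides MHC class II molecules, was at 4592, 6837 and 5989 CPM in controls and 19538, 13619 and 14397 CPM in mutants (log2 fold change 1.45 ± 0.20 (SE), adjusted p = 0.00215). mhc2d4b, an MHC class II gene outside this list, was at 495, 1073 and 679 CPM against 3533, 3135 and 3279 CPM, 4.43-fold higher (adjusted p = 0.000469). Neither gene overlapped between the groups, which for mhc2d4b, 1 of the 15 higher genes with the smallest adjusted p, was a condition of the choice. ciita, the master activator of class II genes, was at 94.9, 121 and 149 CPM in controls and 308, 417 and 486 CPM in mutants (adjusted p = 0.0152), a call lost without control replicate 1 or csf1rDM replicate 3 (adjusted p = 0.0862 and 0.0537).

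The co-stimulatory marker gene cd83 rose by 1.63 ± 0.38 (SE) on the log2 scale, with 46.3, 180 and 79.3 CPM in controls and 279, 362 and 303 CPM in mutants. Members of the list that serve the class I pathway, b2m, PSMB8, tap2a and mhc1zba, rose by 1.22, 1.24, 1.83 and 0.79 on the log2 scale. These 5 calls were less firm than that for cd74a: without control replicate 1 the adjusted p was 0.0601 to 0.194, and without control replicate 3 it was 0.0897 to 0.189, cd83 included. The calls for cd83, b2m and mhc1zba were also lost without any single csf1rDM fish (0.0559 to 0.107), and that for PSMB8 without csf1rDM replicate 2 or 3 (0.0574 and 0.0544). mhc2dab was at 721, 1317 and 918 CPM in controls and 3648, 2610 and 3004 CPM in mutants, yet its standard error was 1.35, with the spread taken from all 15 libraries, and it was not called (adjusted p = 0.641). In control replicates 1 to 3 at 1.5 mpf, which entered that fit, the gene was at 2072, 0.777 and 2622 CPM. mhc2dab was called when only the 6 libraries at 33 dpf were fitted (adjusted p = 0.0476). MHC genes have near-identical copies among which reads could be split in counting, so values of single copies are uncertain. Across the 13 identifiers whose names begin with mhc2, a set drawn up after the values were seen, the sum was 7655 to 16847 CPM in controls and 31729 to 43701 CPM in csf1rDM fish. The number of antigen presentation genes that rose was 3 without control replicate 1, 4 without control replicate 3 or with the 6 libraries at 33 dpf alone, 7 without csf1rDM replicate 2 and 6 without csf1rDM replicate 3.

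**Figure D3:**
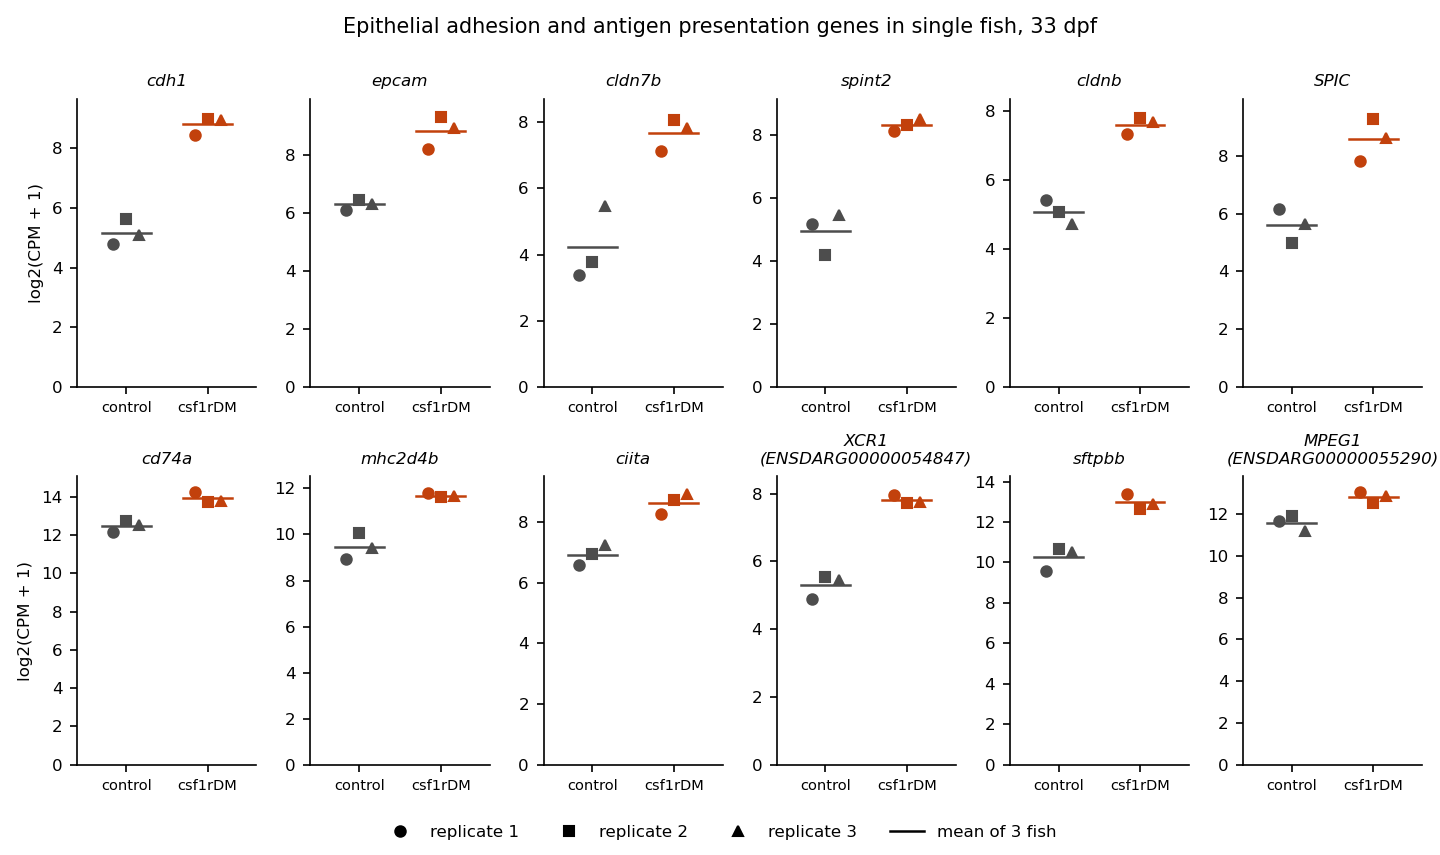
Level of 12 genes in each fish at 33 dpf, as log2(CPM + 1) on the vertical axis, for controls (grey) and csf1rDM fish (orange); symbols give the replicate and bars the mean of the 3 log2 values. Every csf1rDM fish lay above every control for each gene, by most for cdh1, cldn7b and spint2. The 12 genes are a selection, and cd4-1, of the same metaphocyte list, was lower in every mutant.

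Receptor genes for chemokines changed in both directions. The pair of identifiers named XCR1, a chemokine receptor that marks conventional dendritic cells in mammals, both rose. XCR1 ENSDARG00000054847 was at 28.7, 45.3 and 43.2 CPM in controls and 247, 210 and 214 CPM in mutants (log2 fold change 2.52 ± 0.29 (SE), adjusted p = 0.000681), and ENSDARG00000052988 rose by 1.74 ± 0.34. CCR9 ENSDARG00000055186, CXCR4 ENSDARG00000041959 and il10rb, the interleukin-10 receptor subunit gene, rose by 1.46, 1.35 and 1.25 on the log2 scale. The call for XCR1 ENSDARG00000052988 was lost without control replicate 1 or 3 (adjusted p = 0.0823 and 0.0846), and that for CCR9 without either of these or csf1rDM replicate 1 or 2 (0.0545 to 0.125). CXCR4, the receptor for Cxcl12, was at 530 to 576 CPM in controls and at 1854, 1595 and 804 CPM in mutants. CXCR3 was at 8.55, 17.9 and 19.7 CPM in controls and had no count in any csf1rDM fish, at least 81.9-fold lower by the bound from sequencing depth alone. In the list of 43 tested cytokine and chemokine receptors, 5 rose and 2 fell, the second being csf1rb. Without csf1rDM replicate 2, 4 rose and 4 fell. Without control replicate 1 or 3, 3 rose and 1 fell, without csf1rDM replicate 3, 5 rose and 1 fell, and with only the 6 libraries at 33 dpf 2 rose and both calls of lower genes were lost. GPR34, a lysophosphatidylserine receptor gene chosen after its values were seen, was at 9.47, 13.1 and 8.49 CPM in controls and 80.9, 146 and 90.4 CPM in mutants (adjusted p = 0.00239).

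The remaining higher genes with the smallest adjusted p were of several kinds, and 1 of the 15 had no symbol. si:dkey-33i11.9, whose function is not annotated here, was at 43.7, 69.5 and 55.4 CPM in controls and 1423, 1147 and 1558 CPM in mutants, 24.5-fold higher (adjusted p = 1.05e-05). sftpbb, of the surfactant protein B family, was at 762, 1603 and 1463 CPM against 10694, 6465 and 7595 CPM (log2 fold change 2.69 ± 0.26 (SE), adjusted p = 0.000257). GM2A, an activator of lysosomal ganglioside breakdown, rose from 361 to 396 CPM in controls to 1151 to 1375 CPM in mutants. DDIT4, a stress-induced inhibitor of mTORC1 signalling, was at 0.924, 0.165 and 0.531 CPM in controls and 193, 166 and 18.1 CPM in mutants. FNBP1L, a membrane-bending protein gene, was at 0.154, 1.32 and 1.06 CPM against 88.1, 112 and 153 CPM. Both were close to absent in controls and plainly present in every mutant. PADI1, SLA, SH3BGRL, si:dkey-33c9.6 and si:ch211-226m16.2 rose by 2.84, 1.90, 1.48, 1.90 and 1.76 on the log2 scale. None of these genes overlapped between the groups, which was a condition for choosing the 15.

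scinlb, a calcium-dependent actin-severing protein gene, rose from 687 to 798 CPM in controls to 1911 to 2377 CPM in mutants (log2 fold change 1.51 ± 0.15 (SE), adjusted p = 0.000286). In a list of actin regulators drawn up after the values were seen, 17 of 43 rose and 1 fell, against 1.71% and 1.34% of all genes tested. Among them actb1, the cytoplasmic actin gene, was at 6322, 7648 and 8188 CPM in controls and 12143, 14541 and 13502 CPM in mutants (adjusted p = 0.00332). The Arp2/3 subunit gene ARPC3, the GTPase gene cdc42l and ZYX, the zyxin gene of cell contacts, rose by 0.85, 0.60 and 1.92 on the log2 scale. The calls for ARPC3, cdc42l and ZYX were lost without control replicate 1 (adjusted p = 0.0860, 0.127 and 0.0791), control replicate 3 (0.0846, 0.226 and 0.187) or csf1rDM replicate 1 (0.0530, 0.145 and 0.0922), and those for cdc42l and ZYX also without csf1rDM replicate 2 or 3 (0.0517 to 0.123). ZYX was lost without control replicate 2 as well (0.102), and so in all 6 leave-outs. The number of actin regulators that rose was 5 with only the 6 libraries at 33 dpf, 7 without control replicate 1 or 3, 9 without csf1rDM replicate 1 or 3, and 10 without csf1rDM replicate 2.

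Inflammatory genes rose in part. tnfb, a tumour necrosis factor gene, was at 75.5, 55.1 and 84.9 CPM in controls and 345, 239 and 219 CPM in mutants (log2 fold change 1.90 ± 0.27 (SE), adjusted p = 0.00251). tnfa was at 6.01, 12.7 and 9.55 CPM against 89.7, 30.2 and 51.4 CPM (adjusted p = 0.0180), with the call lost without control replicate 1 (adjusted p = 0.0976), control replicate 3 (0.0935) or csf1rDM replicate 1 (0.0846). The chemokine gene ccl35.1 and the adaptor gene MYD88 rose by 1.67 ± 0.33 and 1.12 ± 0.24 (SE) on the log2 scale. tlr5b, the flagellin receptor gene, went the other way, at 64.8, 40.0 and 31.6 CPM in controls and 0, 0.0703 and 0 CPM in mutants (adjusted p = 0.0353). The calls for tlr5b and MYD88 did not hold without control replicate 1 (0.0936 and 0.128), control replicate 3 (0.0824 and 0.144), csf1rDM replicate 2 (0.0889 and 0.123) or csf1rDM replicate 3 (0.123 and 0.0513), nor that for tlr5b without control replicate 2 (0.0618) or csf1rDM replicate 1 (0.117). Of 36 tested inflammatory genes 4 rose, 1 fell and 31 were not called, il1b and tlr1 among the last (adjusted p = 0.624 and 0.992). Over all genes tested 1.71% rose and 1.34% fell. The number that rose was 2 without control replicate 1 or 3 and 1 with only the 6 libraries at 33 dpf.

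A wider list of the TNF and NF-kappaB pathway was drawn up after the values were seen. It had 10 of 37 members higher and none lower, against 1.71% and 1.34% of all genes tested. The number higher was 4 without control replicate 1 or 3, 6 without csf1rDM replicate 2 and 2 with only the 6 libraries at 33 dpf. Among them IKBKB and map3k14a, kinase genes of the canonical and alternative branches, rose by 2.02 ± 0.34 and 1.14 ± 0.20 (SE) on the log2 scale. IRAK3, a restraining pseudokinase gene, was at 41.0 to 55.7 CPM in controls and 186 to 222 CPM in mutants. Of 36 immediate early genes, which respond to handling and to growth signals within minutes, DUSP1, DUSP5 and DUSP6, phosphatase genes that switch off MAP kinases, rose by 2.27, 2.02 and 1.45 on the log2 scale. DUSP6 overlapped between the groups in csf1rDM replicate 3, and its call was lost without any single fish but that one (adjusted p = 0.108 to 0.188). FOSL2, an AP-1 subunit gene, fell by 2.32 (lost without control replicate 1 or 3 or csf1rDM replicate 1 or 2, 0.0506 to 0.131), and JUN and FOS were not called (adjusted p = 0.893 and 1). Mutant and control fish were dissociated by the same protocol, for 1 hour on ice, and the part of handling in the levels of immediate early genes was not tested.

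Of 51 tested DNA replication genes 5 fell in csf1rDM fish, where 1.34% of all genes tested did, 46 were not called and none rose. The log2 fold change was negative for 49, with a list median of -1.12. The number that fell was 3 without control replicate 1 or 3 or csf1rDM replicate 3, and DESeq2 called 12. PCNA, the sliding clamp of DNA polymerase, was at 842, 585 and 888 CPM in controls and 366, 224 and 297 CPM in mutants (log2 fold change -1.39 ± 0.24 (SE), adjusted p = 0.00832). MCM2, a subunit of the replicative helicase, was at 741, 337 and 354 CPM against 53.2, 45.1 and 158 CPM (log2 fold change -2.49 ± 0.47 (SE), adjusted p = 0.0121). RRM1, the large subunit of ribonucleotide reductase, was at 531, 299 and 530 CPM against 116, 50.6 and 105 CPM (adjusted p = 0.00844). All 3 genes were separate between the groups, with control replicate 1 at or near the top.

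MCM3 and FEN1, a further helicase subunit and a flap endonuclease, fell by 2.38 and 1.65 on the log2 scale. Their calls were lost without control replicate 1 (adjusted p = 0.164 and 0.0501), control replicate 3 (0.0662 and 0.0542) or csf1rDM replicate 3 (0.131 and 0.0569), and that for MCM3 without csf1rDM replicate 2 (0.0756). The mitosis list had 45 tested members and a median of 0.03. None was called by edgeR, where 3 had an unadjusted p under 0.05, and 1 was called by DESeq2. CDK1, the kinase that drives entry into mitosis, was at 42.8, 51.3 and 60.9 CPM in controls and 48.2, 63.1 and 65.4 CPM in mutants, which overlapped (adjusted p = 0.958). Summed over each list, replication genes were at 4237 to 7539 CPM in controls and 2114 to 2509 CPM in mutants, and mitosis genes at 1809 to 2123 CPM against 2074 to 2142 CPM. With only the 6 libraries at 33 dpf the adjusted p of PCNA, MCM2, RRM1, MCM3 and FEN1 was 0.0617, 0.0910, 0.0560, 0.192 and 0.0593.

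Of the genes that build ribosomes 14 were called lower in csf1rDM fish. A list of ribosome biogenesis genes was drawn up after several had been seen among the lower genes, so its counts are a description. All 73 identifiers were tested, 14 fell, none rose, and 70 had a negative log2 fold change, with a median of -1.31. Of these, 47 had all mutants below all controls, where 12.4% of all genes tested did. npm1a, the nucleophosmin gene, was at 1559, 705 and 1079 CPM in controls and 265, 361 and 203 CPM in mutants (log2 fold change -2.01 ± 0.34 (SE), adjusted p = 0.00650). NOP58 and NOP56, core proteins of the particles that methylate ribosomal RNA, fell by 2.28 ± 0.34 and 1.61 ± 0.24 (SE) on the log2 scale. FBL, the methyltransferase of the same particles, was at 460, 263 and 315 CPM against 114, 153 and 60.8 CPM. FBL was not called without control replicate 1 (adjusted p = 0.0515). The called number was 3 with only the 6 libraries at 33 dpf, 7 without control replicate 1, 9 without csf1rDM replicate 1 and 22 with library size alone as the scaling.

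Cytosolic ribosomal protein genes were matched by name, in a list added after the values were seen, so its counts are a description. Of 81 tested 7 fell, 74 were not called and none rose, with a median log2 fold change of -0.61. Of all genes tested 1.34% fell. All mutants lay below all controls for 63 of the 81, and for 12.4% of all genes tested. RPL3 was at 1806, 2000 and 2094 CPM in controls and 1267, 1225 and 1055 CPM in mutants (log2 fold change -0.73 ± 0.11 (SE), adjusted p = 0.00339). With only the 6 libraries at 33 dpf edgeR called none of them, while on all 15 libraries 39 had an unadjusted p under 0.05 and DESeq2 called 41 lower and 1 higher. The number that fell was 20 with library size alone as the scaling. It was 4 without control replicate 2 or csf1rDM replicate 1, 3 without control replicate 3 and 2 without csf1rDM replicate 3. Some ribosomal protein genes may have similar copies, and how reads were divided among any such copies is not given in the sources used here. Translation factor genes, also listed after the values were seen, had 8 of 40 members lower and none higher, eef1a1l1 and eef2b, the genes of elongation factors 1 alpha and 2, among them (log2 fold changes -0.51 and -0.74). Both calls were lost without any single fish except csf1rDM replicate 2, or control replicate 2 for eef2b (adjusted p = 0.0521 to 0.194). The number of translation factor genes that fell was 15 with library size alone, 3 without control replicate 1 or 3 or csf1rDM replicate 3, 2 without csf1rDM replicate 1 and 19 by DESeq2, and all 8 calls were lost with only the 6 libraries at 33 dpf.

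One-carbon metabolism genes, which feed nucleotide and methyl group synthesis, were another set noticed among the lower genes. Of 19 tested 6 fell and none rose, against 1.34% of all genes tested that fell. SHMT1, the cytosolic serine hydroxymethyltransferase gene, was at 291, 198 and 285 CPM in controls and 57.8, 89.4 and 30.7 CPM in mutants (log2 fold change -2.12 ± 0.40 (SE), adjusted p = 0.0127). SHMT2, its mitochondrial counterpart, was at 29.0, 23.2 and 36.8 CPM in controls and had 2 counts over the 3 mutants. AHCY, the gene for S-adenosylhomocysteine hydrolase, fell by 1.56 ± 0.33 (SE) on the log2 scale. Without csf1rDM replicate 1 neither SHMT1 nor AHCY was called (adjusted p = 0.0530 and 0.0957), and AHCY was not called without control replicate 1 (0.0933) or csf1rDM replicate 3 (0.0893). The number of one-carbon genes that fell was 3 without control replicate 1 or csf1rDM replicate 3, and 2 without csf1rDM replicate 1 or with only the 6 libraries at 33 dpf.

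**Figure D4:**
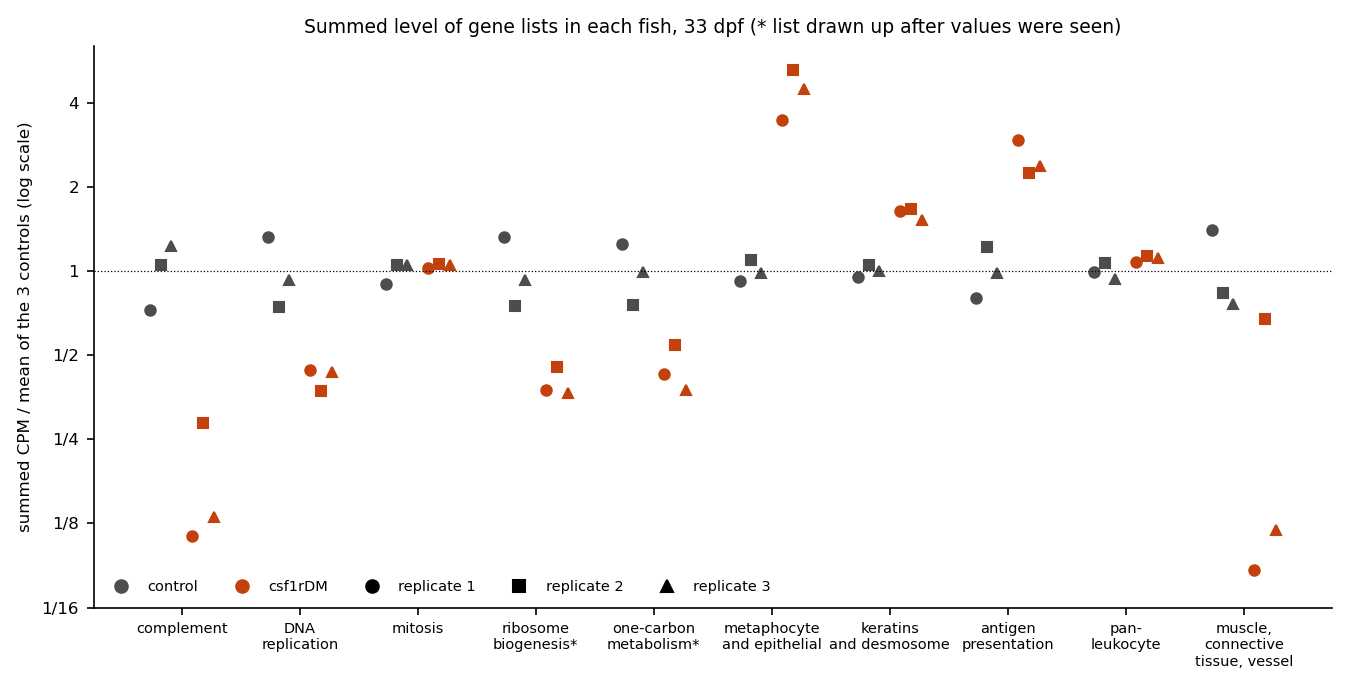
Summed CPM of 10 gene lists in each fish at 33 dpf, divided by the mean of the 3 controls and drawn on a log scale (vertical axis), for controls (grey) and csf1rDM fish (orange), with symbols for the replicate. Replication, ribosome biogenesis and one-carbon sums lay lower in all mutants and epithelial and antigen presentation sums higher, mitosis and pan-leukocyte sums lay near 1 in all fish, and the connective tissue sum of csf1rDM replicate 2 lay far above those of the other mutants. Asterisks mark the ribosome biogenesis and one-carbon lists, drawn up after the values were seen.

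Lysosome genes, abundant in macrophages, changed both ways. Of 45 tested 4 rose, 2 fell and the median was 0.12. The summed level of the 46 measured members was higher in every mutant, at 14179 to 18971 CPM in controls and 22153 to 23425 CPM in mutants. Without csf1rDM replicate 2 the balance of calls turned, with 2 higher and 4 lower. The number that rose was also 2 without control replicate 1 or csf1rDM replicate 1 and 1 without control replicate 3, and the number that fell was 1 without control replicate 2 or csf1rDM replicate 1 or 3, or with only the 6 libraries at 33 dpf. The protease genes CTSD and LGMN fell, CTSD from 775, 988 and 843 CPM in controls to 194, 354 and 200 CPM in mutants (log2 fold change -1.80 ± 0.29 (SE), adjusted p = 0.00497) and LGMN from 1420, 2620 and 1893 CPM to 940.0, 848 and 786 CPM (adjusted p = 0.0193). The progranulin gene grna was at 1587 to 1792 CPM in controls and 3393 to 3913 CPM in mutants, with no overlap (adjusted p = 0.00339). PPT1, a thioesterase gene, rose by 1.74 ± 0.32 (SE) on the log2 scale, and NPC2 and SMPD1, genes of a cholesterol carrier and a sphingomyelinase, had adjusted p-values of 0.0226 and 0.0477. The call for SMPD1 was lost in every leave-out (adjusted p = 0.116 to 0.200), that for NPC2 in every one but those of control replicate 2 and csf1rDM replicate 3 (0.0783 to 0.136), and that for PPT1 without control replicate 3 (0.0672). The call for LGMN was lost without control replicate 2 or csf1rDM replicate 1 or 3 (0.0527 to 0.0761). Among 20 pan-leukocyte genes, arhgdig, rac2 and NCF1, genes of GTPase and oxidase regulation, rose, the phosphatase gene PTPN6 fell and 16 were not called, with a median of 0.05. Without control replicate 3 neither rac2 nor NCF1 was called (adjusted p = 0.0583 and 0.170), NCF1 was also lost without control replicate 1 or csf1rDM replicate 2 or 3 (0.0701 to 0.141), and PTPN6 was lost without csf1rDM replicate 1 (0.0606). itgb7, an integrin gene, was at 183 to 339 CPM in controls and 343 to 560 CPM in mutants and was not called (adjusted p = 0.133). None of 16 osteoclast genes was called by edgeR, 1 having an unadjusted p under 0.05, and 1 was called by DESeq2.

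Markers of other cells that could enter the sort were measured beside these results. The list of 37 muscle, connective tissue and vessel markers summed to 1849 to 3408 CPM in controls and to 207, 1630 and 287 CPM in csf1rDM replicates 1, 2 and 3, with 25 to 33 members at 3 counts or more in a control and 9 to 19 in a mutant. The muscle gene ckma was at 208 CPM in control replicate 1 and at 5.73 CPM or less in the other 5 fish. COL1A2, a fibrillar collagen gene, was at 388 to 528 CPM in controls and 68.9, 281 and 44.2 CPM in mutants (adjusted p = 0.183). Their part in the lower levels of other genes was not tested. FN1, the fibronectin gene, was the only one of 29 tested members of this list called, at 69.8, 59.9 and 62.6 CPM in controls and 0.101, 0.311 and 0 CPM in mutants (adjusted p = 0.0201). The call was lost without control replicate 1 or 3 or csf1rDM replicate 1 or 3 (0.0518 to 0.0797), whereas without csf1rDM replicate 2 a total of 5 members were called.

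Pigment cell genes are of interest because, by the study's account, csf1rDM fish lack most yellow pigment cells and have an abnormal melanocyte pattern. They were sparse: 13 of 33 were tested, and the summed level was 314 to 445 CPM in controls and 128 to 166 CPM in mutants. None was called by edgeR, 4 having an unadjusted p under 0.05, while DESeq2 called 1 higher and 3 lower. The melanocyte gene DCT had no count in any of the 6 fish. Both MITF identifiers were at 1.70 to 15.9 CPM in controls and had no count in mutants (adjusted p = 0.0948 and 0.102). Erythroid genes were low in both groups, hbaa1 being at 8.78 to 39.5 CPM in controls and 0.908 to 8.01 CPM in mutants. Neutrophil lyz was under 0.5 CPM in all 6 fish. The B cell genes cd79a and cd79b were at 1.59 to 26.1 CPM in controls and 0 to 7.77 CPM in mutants, and the T cell kinase genes lck and ZAP70 were at 0 to 39.8 CPM over all 6 fish. Other members called in these lists were few, and 6 are given here. VAMP8 rose and adam8a fell among neutrophil genes, SWAP70 and cd37 fell among B cell genes, ATP1B1, a sodium pump subunit gene, fell among ionocyte genes, and CPA1, a pancreatic protease gene, fell among gut and liver genes. Of these 6 calls only that for ATP1B1 held in every leave-out, and the others were lost in 2 to 6 of the 6 leave-outs at adjusted p-values of 0.0510 to 0.185. The smallest adjusted p among 12 neural genes was 0.219.

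The number of genes detected was lower in the mutants. After every library had been thinned to 5488201 counts, 14781, 14623 and 15420 genes had 3 counts or more in control replicates 1 to 3, and 12664, 13951 and 13572 in csf1rDM replicates 1 to 3. The groups did not overlap, and the mean difference was -1546 genes (exact two-sided permutation test, p = 0.1, the smallest that 3 against 3 can give). Without thinning csf1rDM replicate 2 had the most genes of all 6 fish, 16058. The study reports that whole csf1rDM juveniles gave far fewer mpeg1+ cells than controls. The number of cells in each library is not given in the sources used here, and thinning counts does not adjust for it. Its part in the number of genes detected was not tested.

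The same contrast was made in separate fish at 1.5 mpf, the age given by the stage label and the study, although the sample titles of these fish read 5mo. The controls at both ages were wildtype and the mutants carried the same pair of alleles. There 288 genes were called between csf1rDM and control fish, 1.63% of those tested, with 77 higher (0.437%) and 211 lower (1.2%). Of the 302 genes higher at 33 dpf, 49 were also called higher at 1.5 mpf, and of the 236 lower genes 64 were also called lower. The genes were chosen for their 33 dpf values, so their values at the older age are given as a description. stab1, CEBPA and cdh1 had log2 fold changes of -10.96, -3.69 and 2.95 at 1.5 mpf, close to those at 33 dpf. The c1qa value was -5.29, and that of csf1ra, which was called at this age, was -12.62. At 1.5 mpf the csf1rDM fish were at 0.0977 CPM or less for stab1 and 0.0346 CPM or less for csf1ra. The fitted sizes for stab1 at both ages, and for csf1ra at 1.5 mpf, thus rest on very few counts. SPIC and GPR34 were at 3.19 and 3.64. Among the groups of genes, 11 of 28 macrophage markers were called lower at 1.5 mpf and 3 of 43 metaphocyte and epithelial genes higher. Of 30 antigen presentation genes 1, XCR1 ENSDARG00000054847, was called higher, with a list median of 0.26 against 1.21 at 33 dpf. The smallest adjusted p among DNA replication genes at 1.5 mpf was 0.207 (list median 0.31), and 1 ribosome biogenesis gene was called lower (list median -0.11). Of 81 cytosolic ribosomal protein genes 31 were called lower at 1.5 mpf (list median -1.18, against -0.61 at 33 dpf). Of 40 translation factor genes 4 were called lower at that age (list median -0.21). When the difference between the ages was tested in the same fit, the smallest adjusted p was 0.0956 among antigen presentation genes and 0.0696 among DNA replication genes. Of the ribosome biogenesis genes pdcd11 passed (adjusted p = 0.0428). The test of this difference was passed by 42 genes, 0.238% of those tested.

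**Figure D5:**
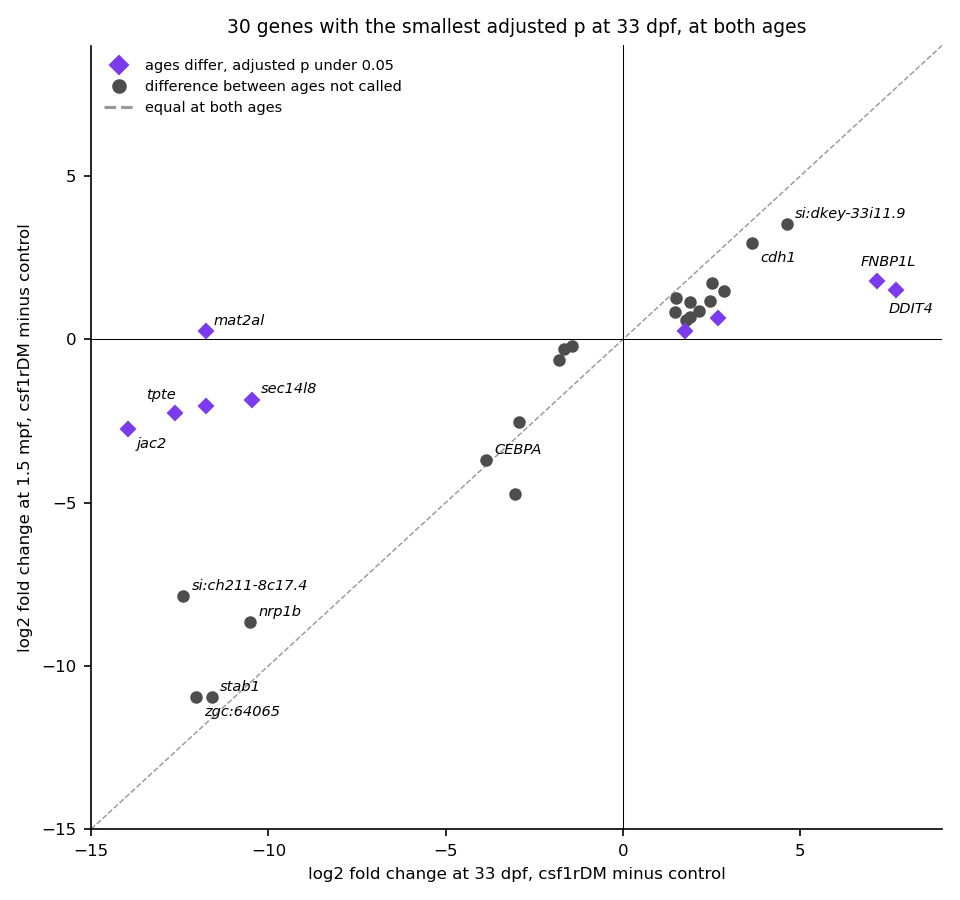
Log2 fold change of csf1rDM against control at 33 dpf (horizontal axis) and at 1.5 mpf (vertical axis) for 30 genes, 15 in each direction. They had the smallest adjusted p at 33 dpf among called genes without overlap between the groups and with a mean of at least 5 CPM. The 9 purple diamonds mark genes whose effect differed between the ages at an adjusted p under 0.05. stab1, CEBPA and cdh1 lay near the line of equal values, whereas mat2al, tpte, DDIT4 and FNBP1L lay far from it, with the larger difference at 33 dpf. For stab1 the mutants were near the limit of detection at both ages.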

How the data were processed

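The authors mapped the reads with STAR to the zebrafish GRCz10 genome and deposited raw counts of reads per Ensembl gene for 15 libraries. The notes of the submitters also name cutadapt, HTSeq and Cufflinks, and the annotation is not given in the sources used here. cDNA had been amplified with SMART-seq V4, which does not mark strand, without molecular identifiers. A table of gene symbols named 27000 of 35117 identifiers. Many symbols are those of the human gene, in capitals, and several identifiers can share a symbol. For some such symbols the identifier stands in the text. Of the others, GM2A is ENSDARG00000088439, SLA ENSDARG00000054340, JUP ENSDARG00000070787 and FN1 ENSDARG00000019815. NPC2 is ENSDARG00000090912, CPA1 ENSDARG00000021339, SWAP70 ENSDARG00000057286 and ATP1B1 ENSDARG00000013144. Further identifiers that share these symbols are not described here. Of 760 list symbols 698 were matched, not cldnh, mpx or cd3eb. Coordinates and sequences were not used here.

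The fit used edgeR 4.0.16 (R 4.3.3) on these counts, with filterByExpr, TMM factors, 1 coefficient for each of 5 groups, robust glmQLFit with 10 residual degrees of freedom, glmQLFTest and Benjamini-Hochberg adjustment over 17640 genes. A gene was called at an adjusted p under 0.05. The SE given is derived from the test, as the absolute log2 fold change divided by the square root of the glmQLFTest F statistic. CPM divides counts by the TMM-scaled library. The floor was 3 counts per library. The functions were tested on simulated data. Replicates are single fish, and p-values cover the spread between these fish. DESeq2 1.42.0 and other alternatives were tried. Named genes were those of the text of the paper, the 15 in each direction with the smallest adjusted p that did not overlap between groups and had a mean of at least 5 CPM, up to 6 called members in each direction of 26 lists, and defining markers of other cells. The lists, members and tests were chosen with earlier results of these data known, and 8 further lists were added after the values were seen. A few called list members are not reported here by name, though the list counts include them.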

Additional observations from a re-analysis of the deposited data

Results flagged for a closer look

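For 14 named genes the csf1rDM effect differed between 33 dpf and 1.5 mpf at an adjusted p under 0.05, as tested by edgeR in the fit of all libraries. All were named for their 33 dpf values, and the fish and controls of the 2 ages were separate, so that age cannot be told apart from other differences between the sets of fish. Values are the log2 effect at 1.5 mpf minus that at 33 dpf. DDIT4 (-6.20) was at 0.165 to 0.924 CPM in controls at 33 dpf and 235 to 392 CPM at 1.5 mpf, while csf1rDM fish were at 18.1 to 193 and 855 to 930 CPM. FNBP1L (-5.38) was at 0.154 to 1.32 and then 16.4 to 45.8 CPM in controls. The MAP kinase phosphatase gene DUSP1 (-2.97) was at 40.2 to 57.9 CPM in controls at 33 dpf and 936 to 1530 CPM at 1.5 mpf, and the csf1rDM fish went from 206 to 313 CPM to 491 to 1080 CPM. CXCR4 ENSDARG00000041959 (-1.88) was at 530 to 576 and 5892 to 7723 CPM in controls.

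For il10rb (-2.11) it was the mutants that stood apart, at 412 to 464 CPM at 33 dpf and 132 to 165 CPM at 1.5 mpf, and at the older age the gene was lower than in controls (adjusted p = 0.0444). sftpbb differed by -2.05, si:ch211-226m16.2 by -1.50 and pdcd11 by 3.01.

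The other genes had no count, or 2 counts in all, in the csf1rDM fish at 33 dpf and were detected in those at 1.5 mpf, so their differences depend on the prior count and are no bounds. These were tpte (10.36), mat2al (12.02), jac2 (11.21), sec14l8 (8.61), CXCR3 (10.15) and ENSDARG00000108060 (9.73). At 1.5 mpf csf1rDM fish held 11.6 to 32.1 CPM of tpte, 7.52 to 17.9 CPM of mat2al, 1.62 to 4.67 CPM of jac2, 12.4 to 22.9 CPM of sec14l8 and 8.89 to 18.4 CPM of CXCR3.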

How the results depend on the processing

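The number of genes called between csf1rDM and control fish at 33 dpf was 473 to 571 under other scalings, low-count filters, non-robust estimation and thinning to the smallest library, and 486 above an absolute log2 fold change of 1. With only the 6 libraries at 33 dpf it was 148 (99 higher, 49 lower), at an adjusted p under 0.01 it was 172 (106 and 66), and with DESeq2 it was 2261 (998 and 1263), which held 537 of the 538. Leaving out each fish gave 242 to 476 calls, 115 to 254 higher and 120 to 266 lower. List members called numbered 72, with 30 from the 6 libraries alone, 159 with DESeq2 and 37 to 69 without single fish. The labels do not pair fish by replicate number. Deviations of same-numbered fish at 33 dpf had correlations of -0.02, 0.000732 and 0.0182, which cannot exclude a shared batch. Replicate 2 was the deepest library in every group but the 33 dpf controls, where it was the shallowest (5488201 counts). Its totals were 106374902 and 30478713 counts in csf1rDM fish at 33 dpf and 1.5 mpf. A fit with the replicate number as a block gave 264 calls (161 and 103) and is given here only. Of 115 named genes called, 43 were called in every edgeR setting and none changed direction. Genes that were not called crossed 0. With library size alone spi1a was at -0.0055 and tlr1 at -0.11, thinned lyz was at 0.45, and under the block csf1b was at -0.65. Without single fish tlr1 ranged from -0.15 to 0.41, lyz from -0.77 to 0.20, lck from -1.93 to 0.18, csf1b from -6.37 to 1.04, FOS from -1.03 to 0.43, JUN from -1.03 to 0.066, and MFAP4 ENSDARG00000038683 from -0.021 to 2.28. The cause of these changes of sign was not tested. Depth limits genes near 3 counts in the mutants, where a fitted fold change is no bound.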
